A study of Drosophila melanogaster with 12 samples.

Results

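The genes described here are 97 of the 10530 genes tested (0.921%), and their RNA was at least halved after 12 h of paraquat in G9a mutant heads and in control heads alike. Paraquat is a herbicide that cycles electrons inside cells and so imposes oxidative stress (OS). A gene was taken when its mean normalized count over the 12 libraries was at least 10, and when the mean of log2(normalized count + 1) at 12 h lay at least 1 unit below that at 0 h in each genotype. This limit was passed by 689 genes in mutants (6.54% of those tested) and by 170 in controls (1.61%). Both conditions held for 106 genes, which is 15.4% of the mutant set and 62.4% of the control set. From these, 9 were left out because their symbols belong to the Gst, Hsp, Cyp, Ugt, Obp, Cpr or lncRNA families. The limits on the change used the 0 h and 12 h libraries alone, so the change at 12 h is given below as a description. The 6 h libraries entered the choice only through the minimum mean count, and a test is given for them alone.

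Mutants were labelled as homozygous for DD1, a null allele of G9a obtained by removal of a transposon, and G9a protein is not detected in them. G9a is the enzyme that dimethylates histone H3 at lysine 9. Controls descended from a precise removal of the transposon and share the background. Both genotypes were male, 5 to 9 days old, and were sampled before exposure (0 h) and after 6 and 12 h on food with 50 mM paraquat. Each library was made from 200 heads, 2 libraries to a group and 6 groups in all, and nothing in the labels says whether the 2 pools of a group came from separate rearings, so the p-values measure the spread between pools.

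In bulk tissue such as whole heads, fewer cells of a type cannot be told apart from less RNA per cell. Fly heads hold photoreceptors, neurons and glia, and around the brain a layer of fat body, the tissue that stores glycogen and fat and secretes hormones and immune proteins. Many head genes also follow the circadian clock, in which Clock protein switches on period, timeless and vrille, whose products in turn hold down the activity of Clock protein or the transcription of its gene Clk. No library came from flies kept without paraquat to the hour of the 6 h or 12 h samples, so hours of exposure and time of day cannot be told apart for any gene here.

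Read numbers could be recovered from the table and depth went with the time point, with 32325896 to 41393992 reads in the 0 h libraries, 19275805 to 24253605 at 6 h and 21872478 to 24078932 at 12 h. With reads thinned to the smallest library, 87 genes met the rule, 83 of them among the 97. Neuronal markers (elav, nSyb, Syt1, brp) summed to 129722 to 158240 normalized counts in every library, and accessory gland markers to at most 9.63. The G9a count covers the whole gene and does not check the genotype labels.

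As a description, the fall was larger in mutants for most of the 97 genes. Over the 97 genes the median log2 change at 12 h was −2.14 in mutants, a 4.42-fold lower level, and −1.35 in controls, a 2.54-fold lower level. The median over all genes tested was −0.01 in mutants and 0.01 in controls. Changes of −2 or beyond were found for 59 genes in mutants and for 11 in controls. The more negative change was in mutants for 73 genes and in controls for 24. Over all genes tested it was in mutants for 47.5%. The rule used these same changes, so none of these counts is a test. In both genotypes every 12 h library lay below every 0 h library for all 97 genes, as it did for 22.0% of all genes tested. The fit across all genes (limma, called at 1.5-fold or more with an adjusted p up to 0.05) also called the 12 h level lower for 93 of the 97 in mutants (10.3% of all genes) and for 88 in controls (2.86% of all genes), counts that follow from the rule. The genes not called in controls were PGRP-SB1, CG31516, CG8492, CG17974, CR34262, CG7882, Or47b, UQCR-6.4L and Mco3. Of these, CR34262, CG7882, UQCR-6.4L and Mco3 were not called in mutants either.

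**Figure D1:**
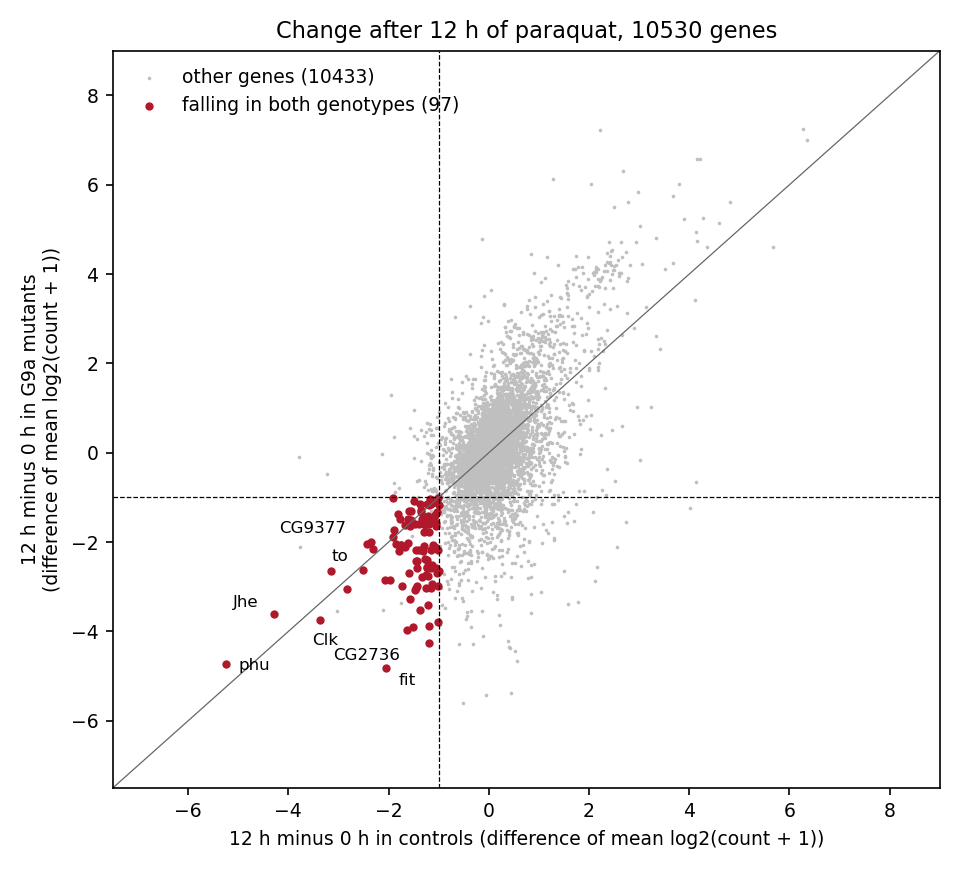
Difference of mean log2(normalized count + 1) between 12 h and 0 h in G9a mutants (vertical axis) against controls (horizontal axis) for the 10530 genes tested, with the 97 genes in red, the limits of −1 as dashed lines and equal change as a solid line. The red points spread further down in mutants (median −2.14) than to the left in controls (median −1.35), and grey points past both limits belong to the 9 genes left out by symbol.

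The limit cuts through a continuous range. Just inside it lay Nagk, which encodes N-acetylglucosamine kinase (−1.158 in mutants and −1.002 in controls), and CG4115 (−2.643 in mutants and −1.001 in controls). Just outside lay Parp16, with a change of −0.995 ± 0.62 in mutants and −1.41 ± 0.62 in controls. In mutants Parp16 had 2.59 and 1.44 normalized counts at 0 h and 0 and 1.20 at 12 h, so its change there depends on the pseudocount of 1. Also just outside lay Hml, which encodes the hemocyte clotting protein Hemolectin, with −0.988 in mutants and −1.52 in controls. A further 46 genes below the minimum mean count fell past both limits and were not used.

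When the genes were chosen on the change in the replicate 1 libraries, 105 met the limits. Each 12 h library was set against the 0 h library of the same number, a pairing that the labels do not give. The replicate 2 libraries entered that choice only through the minimum mean count. In them the median change of the 105 genes was −2.15 in mutants and −1.22 in controls. Of these 105 genes, 69 passed both limits again and 99 were below 0 in both genotypes. Chosen on replicate 2, 97 genes had a median of −2.02 in mutants and −1.24 in controls in replicate 1, and again 69 passed both limits. The medians in the replicate that made the choice were −2.02 and −2.19 in mutants and −1.33 and −1.38 in controls, so the control change was somewhat smaller where it was measured afresh.

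Much of the change was in place by 6 h in both genotypes, and the change by then was larger in mutants. The median log2 change at 6 h was −1.49 in mutants and −0.79 in controls, and the median gene had 67.7% of its 12 h change at 6 h in mutants and 61.8% in controls. A change of −1 or beyond at 6 h was seen in both genotypes for 30 genes (and for 51 of all genes tested, or 0.484%), in mutants alone for 41, in controls alone for 4 and in neither for 22. The 30 early genes include 8 of the mitochondrial genome, the hormone genes CCHa2 and Jhe, and to, phu and fit. At the other end, 8 genes had changes above −0.5 in both genotypes at 6 h, and these were Ank2, cry, TwdlT, CG14304, CG3713, CG7882, Or47b and UQCR-6.4L. The mean at 6 h lay below that at 12 h for 15 genes in mutants and for 8 in controls, so for these genes the lowest point of the 3 sampled hours was 6 h. Because the 0 h libraries chose the genes, none of these changes is a test.

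**Figure D2:**
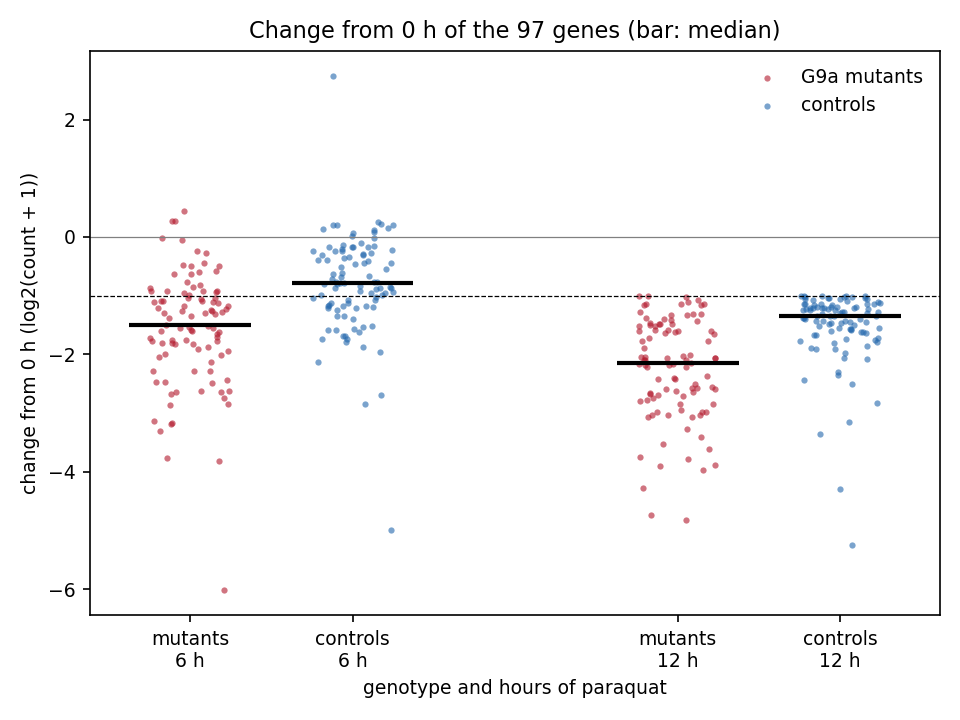
Change from 0 h on the log2(normalized count + 1) scale for each of the 97 genes at 6 h and 12 h in G9a mutants (red) and controls (blue), with the median as a black bar and the limit of −1 dashed. At 6 h the medians were −1.49 in mutants and −0.79 in controls, at 12 h −2.14 in mutants and −1.35 in controls, and the 1 control point high above 0 at 6 h is Or47b.

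Among clock genes, Clk, which encodes the activator at the head of the loop, had the third most negative average change over both genotypes (−3.55). Mutants had 1583 and 1553 normalized counts of Clk at 0 h, 791 and 799 at 6 h and 101 and 135 at 12 h. Controls had 1592 and 1709 at 0 h, 1278 and 1313 at 6 h and 154 and 165 at 12 h. The libraries of each hour did not overlap those of the next in either genotype, and the change at 12 h was −3.74 ± 0.11 (SE) in mutants and −3.36 ± 0.11 in controls. Most of the change on the log2 scale came after 6 h, with −0.98 in mutants and −0.35 in controls by then. CG32371, which lies within the span of Clk on the same strand in the later annotation, was also in the set, with changes of −2.65 in mutants and −3.14 in controls on a mean count of 10.2, and reads of the 2 genes may not have been separable.

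The other clock members were cry and to. Cryptochrome, the light receptor encoded by cry, had 6499 and 6660 normalized counts at 0 h, 4732 and 4731 at 6 h and 1502 and 1409 at 12 h in mutants. In controls the counts of cry were 4449 and 3831 at 0 h, 4710 and 5134 at 6 h and 2130 and 1957 at 12 h. The level therefore had not dropped below 0 h in controls at 6 h, and the change at 12 h was −2.18 ± 0.07 in mutants and −1.02 ± 0.07 in controls, where it stood near the limit. Of the 12 clock genes listed (core loop genes, the clock peptide Pdf and to), 12 were tested. In each genotype 3 were called lower at 12 h, namely Clk, cry and to, and 5 were called higher (12.7% of all genes in mutants and 7.31% in controls). The 5 were per, tim, vri, Pdp1 and cwo. In mutants vri rose the most of the 5, by 4.10 ± 0.06, against 3.52 ± 0.06 in controls. The rise of tim was 3.42 ± 0.07 in mutants and 4.11 ± 0.07 in controls, the most of the 5 in controls.

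takeout (to) encodes a secreted protein of the juvenile hormone binding family, is under clock control and is known for its role in feeding. Its count was 1526 and 1730 at 0 h, 988 and 492 at 6 h and 199 and 351 at 12 h in mutants. In controls it was 43742 and 36033 at 0 h, 4972 and 6175 at 6 h and 6919 and 7068 at 12 h. The genotypes did not overlap at any hour, and the control level at 12 h was above the mutant level at 0 h. The change at 12 h was nonetheless similar in size, at −2.61 ± 0.29 in mutants and −2.51 ± 0.29 in controls, and the difference between the genotypes at 0 h was −4.61 on the log2 scale.

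**Figure D3:**
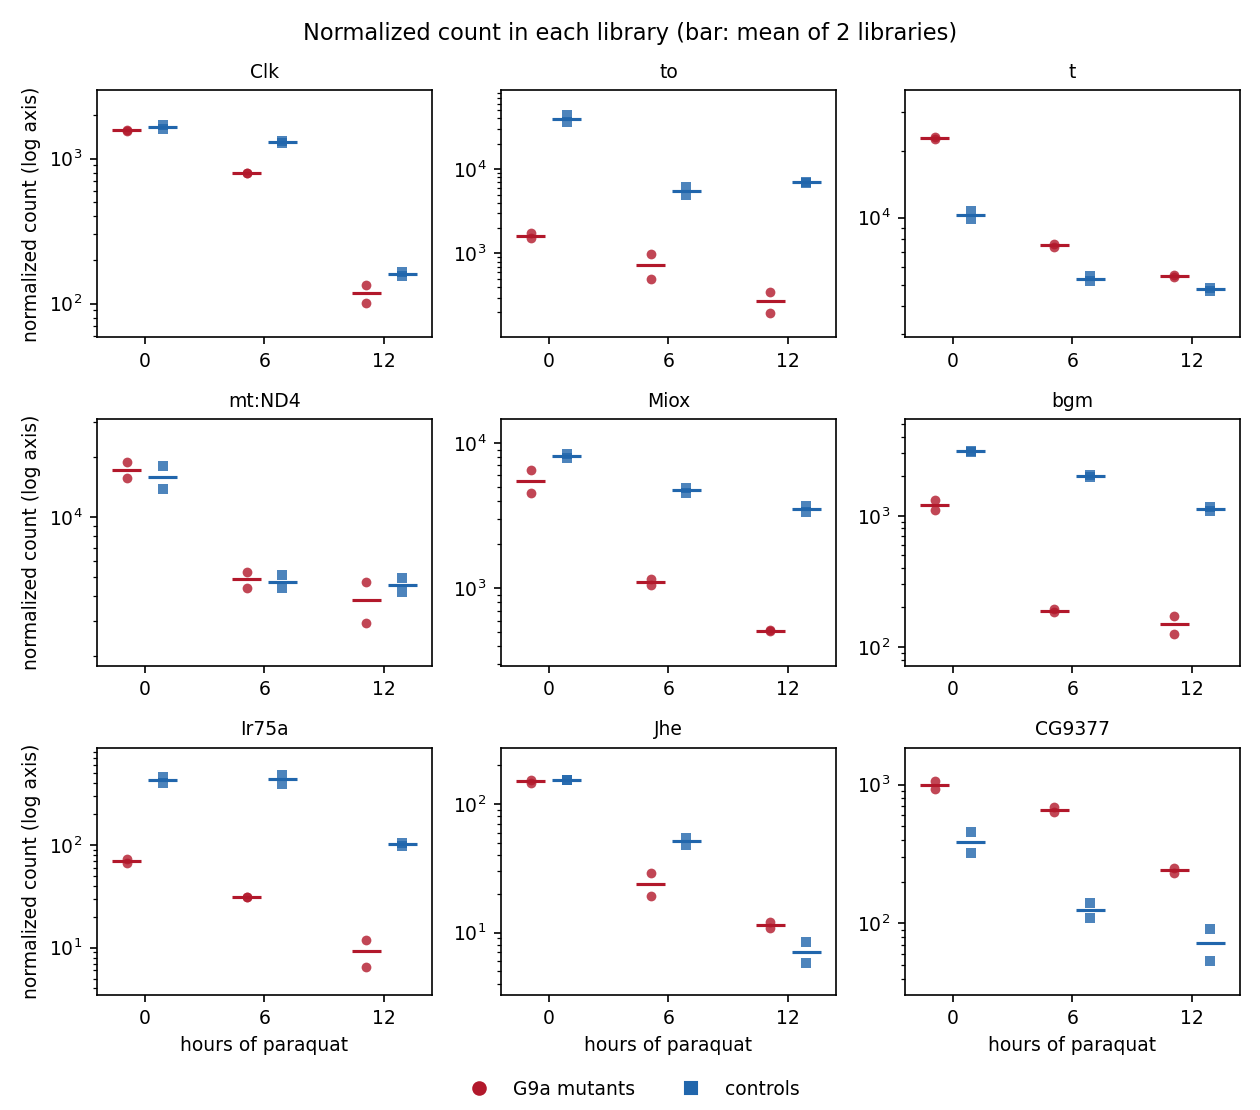
Normalized count (log axis) in each of the 12 libraries against hours of paraquat for 9 of the genes, with G9a mutants (red circles) left of controls (blue squares) at each hour and the mean of 2 libraries as a bar. At 6 h Clk kept most of its level in controls and was about halved in mutants, mt:ND4 was near its low level by 6 h in both genotypes, Miox, bgm and Ir75a were far lower in mutants than in controls at 6 h, and CG9377 was higher in mutants throughout.

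Genes of the mitochondrial genome made up 10 of the 97 (10.3%, against 0.161% of all genes tested, which is 17 genes). They were all 7 subunits of respiratory complex I that this genome encodes, the small ribosomal RNA and 2 transfer RNAs. Complex I passes electrons from NADH into the respiratory chain, and is also one of the places where paraquat can take up electrons. The 12 h changes of the 7 complex I genes ran from −2.84 (mt:ND3) to −1.49 (mt:ND2) in mutants, with a median of −2.03, and from −1.97 (mt:ND3) to −1.05 (mt:ND1) in controls, with a median of −1.77. For mt:ND4 the mutant libraries held 15660 and 18815 normalized counts at 0 h, 4409 and 5307 at 6 h and 2932 and 4713 at 12 h. Control libraries held 13755 and 18064 at 0 h, 5084 and 4375 at 6 h and 4934 and 4182 at 12 h. The genotypes overlapped at every hour and the fall was mostly complete by 6 h.

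mt:ND5 and mt:ND1 had the same course at similar levels. mt:ND5 stood at 12060 and 16198 at 0 h, 4195 and 4743 at 6 h and 2879 and 4083 at 12 h in mutants, and at 11407 and 15473, 4803 and 4434, and 4553 and 4141 at these hours in controls. The counts of mt:ND1 were 11805 and 14485 at 0 h, 5468 and 6185 at 6 h and 3747 and 5130 at 12 h in mutants, and 9335 and 15154, 6024 and 6026, and 6178 and 5366 in controls. At 0 h the 2 libraries of a genotype differed by more than the genotypes did, with the second library the higher one in both. None of the 7 complex I genes was called between mutants and controls at 6 h, where their differences ran from −0.58 to 0.04, or at 0 h, where they ran from −0.75 to 0.14. At 12 h, whose libraries chose the genes, the differences ran from −0.96 to −0.29, and mt:ND3 (−0.96) and mt:ND6 (−0.71) were past the limits of a call as lower in mutants, as were 10.2% of all genes tested.

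The other protein-coding genes and the large ribosomal RNA, compared here after the complex I genes had been seen, changed less than any complex I gene in either genotype. The 3 cytochrome c oxidase subunits of complex IV had 12 h changes of −0.96 to −0.69 in mutants and −0.59 to −0.41 in controls, with all 3 called lower in mutants and 1 in controls. Cytochrome b of complex III changed by −1.25 in mutants and −0.82 in controls, called in both. The large ribosomal RNA changed by −0.93 in mutants and −0.94 in controls, and mt:ATPase6 by −0.93 in mutants and −1.03 in controls. The count of mt:ATPase8, whose sequence overlaps that of mt:ATPase6, went up by 1.05 in mutants and 0.90 in controls. Its mean was 102 normalized counts against 24124 for mt:ATPase6, and reads of the 2 genes may not have been separable. For the other 3 members of this genome, the changes were wide in error, with the small ribosomal RNA at −1.15 ± 0.35 in mutants and −1.15 ± 0.35 in controls, mt:tRNA:Lys-CTT at −1.38 ± 0.43 in mutants and −1.81 ± 0.43 in controls, and mt:tRNA:Tyr-GTA at −2.14 ± 0.71 in mutants and −2.30 ± 0.71 in controls. The last of these had the most negative change of the 17 genes in controls, on few reads. All genes of the mitochondrial genome together took 2.20% and 2.54% of the reads in mutants at 12 h against 4.36% and 4.69% at 0 h, and 3.55% and 3.32% in controls at 12 h against 5.64% and 6.39% at 0 h. The complex I genes lay below 0 in both genotypes under the 19 other settings of scaling, filter, pseudocount and left-out library. The rule had chosen them for falls past −1 in this same contrast, so the sign is no separate support. Of the 22 transfer RNAs, 2 passed the minimum count, on means of 20.3 and 10.6, and the library kit selects polyadenylated RNA, so their counts and those of the ribosomal RNAs are not a measure of the mature molecules. Reads were counted without regard to strand, and mt:ND4L overlaps mt:ND4 in the annotation.

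**Figure D4:**
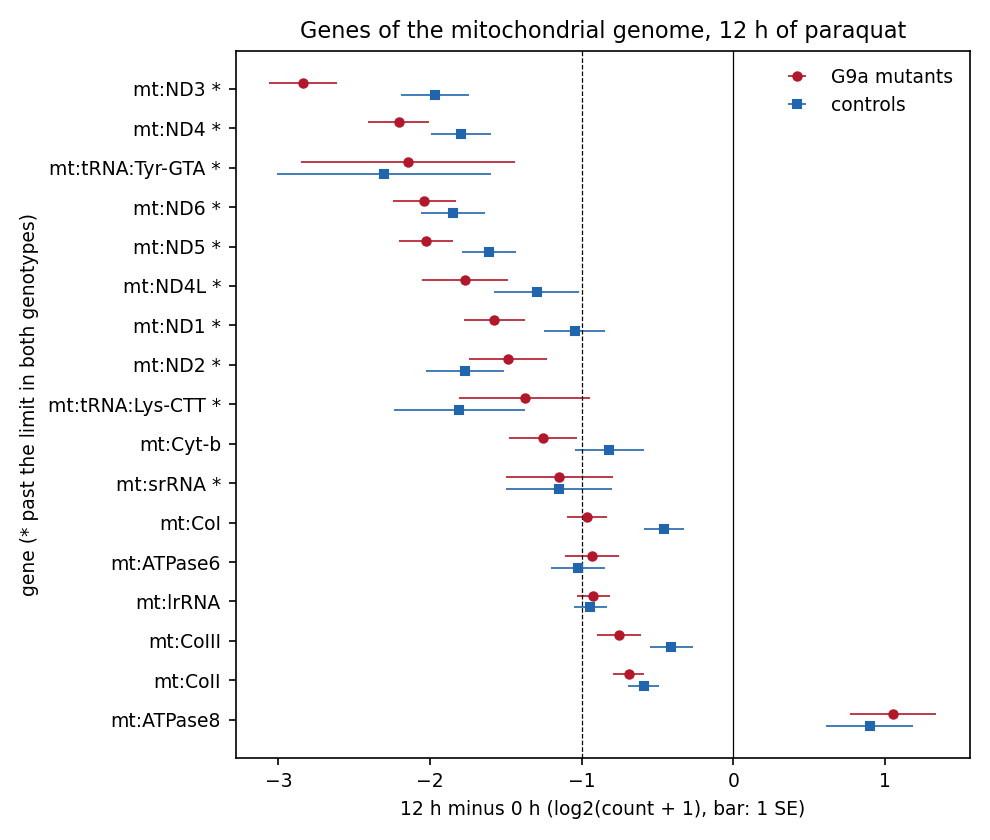
Change between 12 h and 0 h on the log2(normalized count + 1) scale for the 17 genes of the mitochondrial genome that were tested, with G9a mutants (red) above controls (blue), bars of 1 SE, and an asterisk for the 10 genes past the limit in both genotypes. The 7 complex I genes (mt:ND) all lie at or below −1.05, and the 3 complex IV genes (mt:Co) lie between −0.96 and −0.41. mt:ATPase8, with a mean of 102 normalized counts and a sequence overlapping mt:ATPase6, lies above 0.

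The set held 3 enzymes of dopamine and histamine chemistry that also serve cuticle tanning. ple encodes tyrosine hydroxylase, which makes the precursor of dopamine, e (ebony) encodes the enzyme that joins β-alanine to dopamine or histamine, and t (tan) encodes the hydrolase that releases them again, in the eye as part of histamine recycling. t, the third most abundant gene of the set, had 22539 and 23029 normalized counts at 0 h, 7608 and 7408 at 6 h and 5539 and 5379 at 12 h in mutants. Controls had 10702 and 9870, 5200 and 5436, and 4829 and 4697 at these hours. Mutants were thus above controls at every hour with no overlap, by 1.15 at 0 h and 0.20 at 12 h, and the 12 h change was −2.06 ± 0.05 in mutants and −1.11 ± 0.05 in controls. For ple the counts were 2508 and 2548, 1173 and 1162, and 911 and 889 in mutants at 0, 6 and 12 h, and 3408 and 3477, 2187 and 2240, and 1442 and 1286 in controls. Here mutants were below controls at every hour. e changed by −1.60 in mutants and −1.19 in controls at 12 h. Ddc, which encodes the dopa decarboxylase between the 2 steps and is in the same cuticle list, was not in the set, with changes of −0.07 in mutants and −0.27 in controls.

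In the list of 38 cuticle and chitin genes, 29 were tested. Of these, 13 were called lower and 5 higher at 12 h in mutants, and 7 lower and 4 higher in controls, with medians of −0.42 in mutants and −0.27 in controls. Of all genes tested, 10.3% were called lower and 12.7% higher in mutants and 2.86% lower and 7.31% higher in controls, and the counts of the lists below stand beside the same shares. Besides ple and e, the members were TwdlT, a cuticle protein of the Tweedle family, and Acp1, an adult cuticle protein. TwdlT had 22.7 and 26.5 normalized counts at 12 h against 66.0 and 56.2 at 0 h in mutants, and 63.4 and 96.6 at 12 h against 204 and 199 at 0 h in controls. Acp1 had 10.8 and 13.2 at 12 h against 86.8 and 127 at 0 h in mutants, and 16.7 and 12.8 against 38.3 and 34.3 in controls. The larger fall of Acp1 in mutants started from a higher level. Idgf1, a chitinase-like growth factor of the same list, was among those called higher, by 2.81 in mutants and 1.49 in controls.

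Several members, named here in part after their values were seen, have roles in carbohydrate and lipid metabolism. Miox encodes myo-inositol oxygenase, Gbs-70E a glycogen-targeting subunit of protein phosphatase 1, CCHa2 a nutrient-sensitive peptide hormone that promotes insulin release, and Eglp4 a channel for water and glycerol. Miox had 4518 and 6493 normalized counts at 0 h, 1167 and 1053 at 6 h and 519 and 505 at 12 h in mutants. In controls it had 8433 and 7821, 4498 and 4908, and 3691 and 3364. The mutant libraries of 6 h and 12 h lay below every control library, and the 12 h change was −3.40 ± 0.13 in mutants and −1.20 ± 0.13 in controls.

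Gbs-70E showed the same pattern at 942 and 864 normalized counts at 12 h against 3778 and 4618 at 0 h in mutants, and 2881 and 3105 at 12 h against 7126 and 7769 at 0 h in controls. CCHa2 had 734 and 745 at 12 h against 3378 and 4329 at 0 h in mutants, and 2010 and 1941 against 4624 and 4959 in controls. Both were close to these levels by 6 h, with CCHa2 at 835 and 923 in mutants and 1973 and 2271 in controls. The 12 h changes of Gbs-70E, CCHa2 and Eglp4 were −2.21, −2.37 and −2.57 in mutants and −1.32, −1.28 and −1.44 in controls. Adh, which encodes alcohol dehydrogenase, and Fmo-2, a flavin-containing monooxygenase, changed by −2.40 and −2.50 in mutants and by −1.23 and −1.12 in controls.

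Lipid genes were bgm and the neighbours Acsx3 and Acsx4, which encode acyl-CoA synthetases or relatives of them, and mdy, which encodes the diacylglycerol acyltransferase that makes triglyceride. bgm had 1110 and 1312 normalized counts at 0 h, 194 and 183 at 6 h and 126 and 172 at 12 h in mutants. Controls had 3101 and 3091, 1990 and 2035, and 1168 and 1088, so that mutants at 0 h were already near the level of controls at 12 h. Acsx3 ran differently in controls, with 2426 and 2316 at 0 h, 2813 and 2625 at 6 h and 745 and 689 at 12 h. In mutants Acsx3 had 3346 and 3519, 1046 and 993, and 439 and 432. The control level had not dropped at 6 h, and the mutant level had. mdy had 180 and 180 at 12 h against 982 and 1354 at 0 h in mutants, and 420 and 417 against 875 and 813 in controls. In the list of fatty acid and triglyceride synthesis, 17 genes were tested and mdy was the 1 member, with 6 called lower and 2 higher at 12 h in mutants and 3 lower and 3 higher in controls. In the list of fatty acid oxidation and lipases, 20 were tested and bgm was the 1 member, with 3 called lower and 7 higher in mutants and 2 lower and 5 higher in controls.

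The fat body markers Lsp2, apolpp, Fbp1 and Yp1 fell as a sum. They summed to 68886 to 88910 normalized counts at 0 h, 22443 to 24072 at 6 h and 8028 to 9677 at 12 h in mutants. In controls they summed to 94384 to 99707 at 0 h, 65783 to 84455 at 6 h and 61119 to 63443 at 12 h. None of the 4 markers was at 0 in any group, 3 of them passed the minimum count, and their part in the falls was not tested. Lsp2 and apolpp, with means of 14538 and 42990 normalized counts, carried the sum. Yp1, with a mean of 40.6, changed by −0.861 ± 0.535 in mutants and 1.05 ± 0.535 in controls. In the list of 29 fat body secreted and lipid carrier proteins, 21 were tested. At 12 h 6 were called lower and 1 higher in mutants, and 3 lower and 2 higher in controls. The list medians were −0.32 in mutants and −0.02 in controls, and Apoltp went up by 1.415 in mutants and 0.682 in controls.

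The member of that list was fit, which encodes a secreted satiety signal of the fat body that is far more abundant in females, and which is also in the list of sex-biased head genes. It had 232 and 425 normalized counts at 0 h, 32.7 and 13.9 at 6 h and 6.49 and 15.6 at 12 h in mutants. Controls had 225 and 199, 17.2 and 58.3, and 52.6 and 47.7. Its 12 h change of −4.82 ± 0.56 in mutants was the most negative of the set in that genotype, against −2.06 ± 0.56 in controls. The SE reflects libraries of the same group that differed more than 2-fold. Among the 14 sex-biased head genes tested, 6 were called lower and 1 higher in mutants at 12 h, and 2 lower and 1 higher in controls.

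The most negative average over both genotypes belonged to phu, at −4.99. phu had 1031 and 1266 normalized counts at 0 h, 18.9 and 15 at 6 h and 28.1 and 62.6 at 12 h in mutants. Controls had 1343 and 1051, 39.8 and 33.5, and 34.7 and 26.8, and the 12 h change was −4.73 ± 0.31 in mutants and −5.24 ± 0.31 in controls. The whole fall was there at 6 h, and the genotypes overlapped at 12 h. Jhe, which encodes the esterase that degrades juvenile hormone, followed at −3.94. It had 146 and 154 normalized counts at 0 h, 28.9 and 19.2 at 6 h and 10.8 and 12.0 at 12 h in mutants, and 155 and 155, 54.4 and 48.4, and 8.37 and 5.82 in controls. The 2 genotypes started alike, mutants were lower at 6 h and controls were lower at 12 h. Of 21 genes of the ecdysone and juvenile hormone list that were tested, Jhe was the 1 member, with 3 called lower and 2 higher at 12 h in mutants and 1 lower and 4 higher in controls, where 10.3% of all genes were called lower in mutants and 2.86% in controls. Jhbp15, another gene of the juvenile hormone binding family, changed by −3.52 ± 0.39 in mutants and −1.37 ± 0.39 in controls.

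Immune members were PGRP-SB1, a secreted peptidoglycan recognition protein, TotX, a stress-inducible Turandot protein, and eater, a phagocytic receptor of hemocytes. PGRP-SB1 had 358 and 451 normalized counts at 0 h, 77.9 and 25.7 at 6 h and 15.1 and 45.7 at 12 h in mutants, and 695 and 714, 353 and 438, and 301 and 310 in controls. TotX had 60.6 and 95.1 at 12 h against 418 and 596 at 0 h in mutants, and 808 and 718 against 1554 and 1548 in controls. For both genes every mutant library of 6 h and 12 h lay below every control library. In the immune list of 36 genes, 25 were tested, and at 12 h 4 were called lower and 5 higher in mutants and 1 lower and 6 higher in controls, so PGRP-SB1 ran against the list median of 0.34 in mutants and 0.76 in controls. eater had 6.49 and 9.63 at 12 h against 16.8 and 20.9 at 0 h in mutants, and 21.5 and 16.3 against 42.1 and 49.3 in controls. The hemocyte markers Hml, NimC1 and He summed to 375 to 477 at 12 h against 313 to 373 at 0 h in mutants, and to 455 to 491 against 1156 to 1289 in controls, with none at 0. The sum in mutants joins opposite changes, since NimC1 changed by 3.03 in mutants and −0.67 in controls and Hml by −0.99 in mutants and −1.52 in controls. Their part in the fall of eater was not tested.

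The set held 3 chemosensory receptors of the antenna. Ir75a and Ir75b are neighbouring ionotropic receptors, of which Ir75a detects acetic acid, and Or47b is a pheromone receptor of the antenna. Ir75a had 73.2 and 66.2 normalized counts at 0 h, 31.4 and 31.0 at 6 h and 6.49 and 12.0 at 12 h in mutants. Controls had 459 and 404, 398 and 478, and 105 and 97.8. The mutant level at 0 h was below the control level at 12 h. Ir75b had 44.0 and 45.4, 26.4 and 11.8, and 7.57 and 4.81 in mutants, and 302 and 270, 288 and 319, and 115 and 78.0 in controls, and so moved as its neighbour did, with reads of close copies perhaps shared between them. Or47b did not decline steadily. It had 20.7 and 20.2, 13.8 and 20.3, and 1.08 and 3.61 in mutants, and 3.19 and 4.18, 34.5 and 26.1, and 2.39 and 0 in controls, and its 12 h change in controls (−1.34 ± 0.63) rests on a few reads.

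Other antennal RNAs did not keep one course. The antenna markers Orco, Obp83b (listed as Os-E), lush and Or42b summed to 2594 to 2756 at 0 h, 1892 to 1956 at 6 h and 203 to 285 at 12 h in mutants. In controls they summed to 287 to 378 at 0 h, 1349 to 1829 at 6 h and 535 to 562 at 12 h. None was at 0. The remaining 18 genes of the antennal list summed to 960 to 988 at 12 h against 3342 to 3858 at 0 h in mutants, and to 1579 to 1846 against 1114 to 1285 in controls. Of the whole list, Ir75a and Or47b included, 11 genes were tested, and 7 were called lower in mutants at 12 h. In controls 1 was called lower, which was Ir75a, and 3 were called higher. Heads were separated by freezing and sieving, the antennal content of the libraries was not measured otherwise, and its part in these changes was not tested.

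The most abundant gene of the set was Ank2, which encodes an ankyrin of axons and presynaptic terminals, with a mean of 87513 normalized counts. It had 130267 and 129758 at 0 h, 90112 and 94061 at 6 h and 66670 and 62588 at 12 h in mutants, and 101595 and 105375, 84171 and 82302, and 53014 and 50243 in controls. The 2 changes were nearly equal (−1.009 in mutants and −1.003 in controls, each with an SE of 0.06) and stand at the limit. Neuronal markers over the same hours summed to 129722 to 131325 at 12 h against 148982 to 149307 at 0 h in mutants and to 132382 to 137111 against 143857 to 158240 in controls. FBgn0027571, a gene with no symbol in the tables used, was next at 23514. It had 40006 and 48376 at 0 h, 8062 and 8134 at 6 h and 9862 and 9722 at 12 h in mutants, and 50124 and 43519, 13884 and 15055, and 17193 and 18232 in controls. Its lowest level was at 6 h in both genotypes.

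Many of the members carry only a CG number. CG34134 had 261 and 225 normalized counts at 12 h against 1992 and 2059 at 0 h in mutants, and 201 and 194 against 1503 and 1330 in controls, nearly the same fall in each. CG2736 had 128 and 170 at 12 h against 2523 and 3221 at 0 h in mutants, and 1498 and 1559 against 3482 and 3491 in controls. CG34180 changed by −3.90 in mutants and −1.52 in controls. CG13607 lies on the opposite strand within Root, the gene of the ciliary protein Rootletin, and as strand was not used their reads may not be separable. The 12 h changes of CG13607 were −3.27 in mutants and −1.57 in controls, and those of Root −3.07 in mutants and −1.48 in controls. Of the 95 members found in the later annotation, 41 overlap another gene there.

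At the low end, 23 of the 97 genes had a mean under 50 normalized counts, and the median of the set was 140 against 652 over all genes tested. Mabi, with a mean of 11.4, had 0 and 0 at 12 h against 14.2 and 15.1 at 0 h in mutants, and 8.37 and 3.49 against 21.7 and 16.7 in controls, so its mutant change of −3.97 depends on the pseudocount of 1. Other low genes named in the annotation are the muscle transcription factor nau, the testis regulator topi, the copper oxidase Mco3 and srw, whose product shapes BMP signals in the embryo. The median exon length was 1607 bases for 95 members and 2033 for the 10040 tested genes with a length. By chromosome, 30 members lay on 3R, 20 on 3L, 16 on 2R, 13 on 2L, 6 on X and 0 on 4, and the X held 6.19% of the members against 15.9% of the genes tested. Of the 22 gene lists, 13 held no member, among them those for sugar digestion and transport, glycogen and trehalose, glycolysis, amino acid breakdown, photoreceptor function, insulin signalling, neuropeptides, muscle, ribosome biogenesis and the cell cycle. The lists do not cover every gene of these kinds, and the members Gbs-70E and CCHa2, described above, are in none of them.

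The limits on the change left free the comparison of mutants with controls at 6 h. It asks whether the genes that fall in both genotypes stand at the same level in both midway through exposure. They did not. By limma, with Benjamini-Hochberg adjustment over all 10530 genes, 54 of the 97 genes (55.7%) were lower in mutants, against 7.39% of all genes tested, and 3 were higher, against 6.53%. The median difference over the 97 genes was −0.84, against 0 over all genes, and 81 of the 97 were below 0 against 49.9% of all genes. The libraries of the genotypes did not overlap with mutants below controls for 69 of the 97 (32.8% of all genes) and with mutants above for 13 (34.7%). With the 4 libraries of 6 h alone in the fit, 49 were called lower and 1 higher, and over the fits that leave out 1 library the number called in either direction was 45 to 59. Because the minimum mean count also used the 6 h libraries, the choice was repeated with that minimum taken over the 0 h and 12 h libraries, a setting added after seeing the data. It gave 94 genes, 92 of them among the 97, with 53 called lower, 3 higher and a median difference of −0.86. With no minimum count at all, 143 genes gave a median of −0.58, with 54 called lower and 1 higher.

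**Figure D5:**
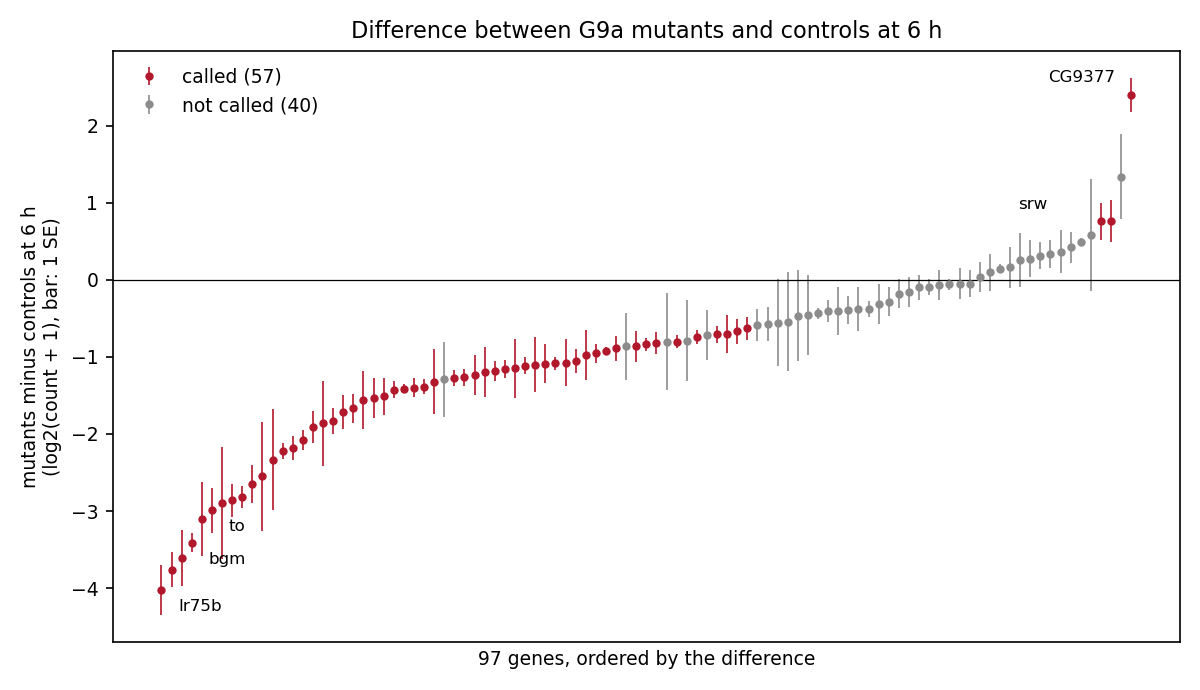
Difference between G9a mutants and controls at 6 h on the log2(normalized count + 1) scale for each of the 97 genes in order of the difference, with bars of 1 SE and the 57 genes called by limma in red. The points run from −4.02 (Ir75b) to 2.40 (CG9377), and 81 of the 97 lie below 0.

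The largest differences at 6 h were those of Ir75b (−4.02 ± 0.33, adjusted p = 3.52e-06), Ir75a (−3.76 ± 0.23, 3.46e-07), CG14606 (−3.61 ± 0.37, 1.65e-05), bgm (−3.41 ± 0.12, 1.21e-08) and PGRP-SB1 (−3.10 ± 0.48, 0.000424), all by limma. CG14606 had 6.29 and 10.7 normalized counts in mutants at 6 h against 99.5 and 125 in controls, and these libraries did not overlap in any of the 5. All 5 were called under each of the 25 alternative fits. By limma, to (−2.989 ± 0.293, adjusted p = 1.33e-05) and mt:tRNA:Tyr-GTA (−2.547 ± 0.706, adjusted p = 0.016, on few reads) were also lower in mutants. The gene dsb, which encodes a scavenger receptor of the CD36 family, stood at −2.22 ± 0.10. Among members with metabolic roles, Miox stood at −2.08 ± 0.13. Acsx3 stood at −1.41 ± 0.06, Gbs-70E at −1.39 ± 0.10, CCHa2 at −1.27 ± 0.10 and mdy at −1.16 ± 0.12. Each of these metabolic members, and dsb, had an adjusted p of at most 1.82e-05 by limma. ple (−0.92 ± 0.06) and Clk (−0.70 ± 0.11, adjusted p = 0.000415) were lower by less, and cry (−0.06 ± 0.07, adjusted p = 0.604), fit (−0.55 ± 0.56, adjusted p = 0.495) and the complex I genes were not called.

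The 3 genes higher in mutants at 6 h were CG9377, reb and srw. CG9377 had 631 and 691 normalized counts in mutants at 6 h against 110 and 140 in controls, a difference of 2.40 ± 0.22 (adjusted p = 9.26e-06, limma), and was also above controls at 0 h (933 and 1059 against 453 and 322). reb, linked to chitin in the tracheae, had 44.0 and 53.5 in mutants against 26.5 and 29.8 in controls, and srw had 47.8 and 38.5 against 27.8 and 22.3. The calls of reb (0.77 ± 0.27, adjusted p = 0.0474 by limma) and srw (0.76 ± 0.24, adjusted p = 0.0276) depended on the setting. Both were lost with no minimum count (adjusted p = 0.0866 for reb and 0.0594 for srw), with the 6 h libraries alone (0.0651 and 0.0883), with DESeq2 (0.153 and 0.185), with a block on crossed replicate numbers (0.0983 and 0.127), without mutant 6 h library 1 (0.0774 and 0.164) and without control 6 h library 2 (0.0961 and 0.15). That of reb was also lost without either of the other 6 h libraries, without either mutant library of 0 h or 12 h, and with the replicate block (adjusted p = 0.0558). The adjusted p ran from 0.0293 to 0.22 for reb and from 0.021 to 0.185 for srw over the alternatives. CG9377 stayed called in all 25.

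Part of the 6 h difference was there before paraquat. Among the 54 genes lower in mutants at 6 h, 14 were also called lower at 0 h (5.25% of all genes), 1 was called higher (5.04% of all genes) and 39 were not called. Those lower at both hours include to, bgm, TotX, Ir75a, Ir75b and TwdlT. Among the 54, the gene higher at 0 h was Acp1. Over all 97 genes, 14 were called lower in mutants at 0 h and 9 were called higher. The 54 were picked for a difference at 6 h, so the shares of all genes are not matched to that choice. The median difference over the 97 genes was −0.10 at 0 h, −0.84 at 6 h and −0.69 at 12 h, of which the first and last share libraries with the rule.

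The genotypes also differed in the size of the 12 h change, given here as a description. The most negative differences of the response (mutant change minus control change) were those of CG2736 (−3.08 ± 0.21), CG17974 (−2.77 ± 1.03) and fit (−2.76 ± 0.79). CG17974 had 1.08 and 2.41 normalized counts at 12 h against 31.7 and 40.3 at 0 h in mutants, and 28.7 and 16.3 against 43.4 and 46.8 in controls. The most positive ones, with the larger fall in controls, were those of srw (0.90 ± 0.33), Jhe (0.68 ± 0.35) and phu (0.51 ± 0.43). None of these positive differences was past the limits of a call. Of the 97 genes, 0 were past them as positive (7.26% of all genes) and 34 as negative (8.53% of all genes).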

How the data were processed

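Per the labels, the authors used BWA (build BDGP5), HTSeq for the counts of each gene and DESeq for 1 size factor per library. The deposited table holds these normalized counts (signal) for 15682 genes in 12 libraries. Their 4 tables of comparisons hold base means, ratios or fold changes, log2 values, p-values and adjusted p-values and were not used. No column of another sample was found. All 188184 values (100%) were whole multiples of the value of 1 read within 0.01 reads, so whole reads were recovered. Intervals and SEs cover the spread of 2 libraries a group.

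Values were taken as log2(normalized count + 1), genes with a mean of at least 10 were kept (10530), and limma 3.58.1 in R 4.3.3 was fitted with 6 group means, an intensity trend and 6 residual degrees of freedom. Calls needed a fold change of at least 1.5 and an adjusted p of at most 0.05. Across all genes at 6 h limma called 1466, and on the recovered reads edgeR 4.0.16 (quasi-likelihood) called 1463 and DESeq2 1.42.0 called 1346. An exact permutation test of 2 libraries against 2 cannot give a p below 0.333. The fit was tested on simulated data.

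The members and the gene lists were chosen with earlier results of these data known. Genes named are the 10 most abundant members, the 10 with the most negative average change, those in a gene list, the 5 with the largest differences in each direction at 6 h among those called, the 3 with the largest difference of response in each direction and the 2 on each side of the limit. Others were named after their values were seen. Symbols, gene order and overlaps came from a later annotation (BDGP6), which paired 15002 of the IDs, so no positions are given. Alternatives were other pseudocounts, filters, limits and scalings, thinned reads, 6 h libraries alone, a replicate block, edgeR, DESeq2 and leaving out each library.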

Additional observations from a re-analysis of the deposited data

How the results depend on the processing

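The number of genes meeting the rule was 97 and moved with the limit, to 268 at a 1.5-fold fall, to 28 at −1.5 and to 59 when every 12 h library had to lie at least 1 below every 0 h library. With no minimum count it was 143, and leaving out each library gave 92 to 103. The number called at 6 h was 57, with 45 to 59 when each library was left out, 55 with edgeR and 49 with DESeq2. The median difference at 6 h was −0.84, with −0.92 to −0.78 when each library was left out and −0.58 with no minimum count. Calls of higher genes at 6 h numbered 1 to 4.

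Same-numbered libraries were not paired by the labels, and the correlations of their deviations ran from −0.568 to 0.449. The number was therefore not used as a pairing in the main fit. The choice of genes by replicate did use it, taking 12 h minus 0 h between libraries of the same number. With the replicate block 56 genes were called at 6 h with a median of −0.836. With the numbers of the mutant 6 h libraries crossed (correlation −0.122, a fit added after seeing the data), 46 were called.

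The limits of these data are 2 pools a group, no unexposed flies at the later hours, shallower libraries at 6 and 12 h than at 0 h, and reads counted without strand. Fat body, muscle, antennal and hemocyte markers moved between groups, and their part in the falls was not tested. The muscle markers (Mhc, Act88F, up, TpnC4) fell as a sum in both genotypes. In mutants they summed to 43328 to 44224 normalized counts at 0 h and 26474 to 27810 at 12 h. In controls they summed to 63613 to 63893 at 0 h and 46776 to 50190 at 12 h. No paralogue or overlap was resolved. Promoter motifs were not searched here.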
